A study of Glycine max with 16 samples.

Results

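In soybean (Glycine max) leaves dried in air, 266 genes stood higher in line B010C than in every other line. They were chosen by their dried values from the 34400 genes, of 56044 in the deposited table, with at least 1 RPKM in 2 or more of 8 columns. RPKM is a read count scaled by the length of the gene and by the number of mapped reads of the library. A gene was chosen when its log2(RPKM + 1) in dried B010C exceeded the highest of the 3 other dried lines by 1 or more, called the dried gap below. A gap of 1 is about 2-fold. The gap uses dried values only, which are therefore given as a description without a test. The limit on low values uses the watered columns too, and it left out 41 genes that had the gap.

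B010C, A004A and A005B are transgenic lines over-expressing GmWRKY54, and null (line name B001A) is the control line without over-expression. The labels give 16 samples in 8 groups of 2, for 4 lines either watered or dried in air for 6 h. All seedlings were 2 weeks old, were raised on soil in a sunlit greenhouse, and gave their trifoliate leaves for RNA. The labels name neither the promoter of the transgene nor the number of insertions, and each line is 1 line. The deposited table has 1 column for the 2 samples of a group, so no value has a replicate and the reads behind it are unknown. In whole leaves, fewer cells of a type and less RNA per cell cannot be told apart.

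WRKY proteins are plant transcription factors that bind the W-box, a short DNA element, and many of them act in responses to pathogens and to loss of water. A leaf that loses water makes abscisic acid, which closes the stomata and switches on genes for protective proteins, sugars and proline. Genes of light harvesting and growth are usually turned down at the same time. Lines made with the same transgene can differ from each other, because the transgene lands at different places in the genome and is expressed at different levels.

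Neither the table nor the gene list at hand, of assembly Glycine_max_v4.0, pairs the table's identifiers with gene names. That list matched 0 identifiers. Genes are therefore named by identifier and no function is given for any of them. For the same reason, the level of GmWRKY54 and the leaf marker genes could not be looked up. Columns of the same treatment were alike across genes, with Pearson r of 0.942 to 0.979 among dried and 0.967 to 0.981 among watered columns. Dried B010C had the highest sum of RPKM of the 8 columns (818267, against 636011 to 785735) and the fewest genes at 1 RPKM or more (28847, against 29009 to 31333). The part of these differences in the values below was not tested, apart from the rescaled values given beside them.

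The chosen genes were 0.773% of those examined. Their median in dried leaves was 24.6 RPKM in B010C, against 4.15 RPKM in null, 4.69 RPKM in A004A and 4.56 RPKM in A005B. In dried B010C, where the choice favours high values, 45 of the 266 reached 100 RPKM or more (16.9%, against 4.01% of all genes kept), and 25 stayed under 5 RPKM. Together the 266 made up 3.23% of all RPKM in dried B010C and 0.980% to 1.07% in the other dried lines. The median of all genes kept was 5.09 RPKM in dried B010C and 4.64 to 5.79 RPKM in the other dried lines, so the chosen genes were above it in B010C and near it elsewhere.

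The dried gap had a median of 1.37 and reached 5.33. It lay under 1.5 in 161 genes and at 2 or more in 50. Among the 254 genes with a value above 0 in another dried line, dried B010C stood at a median of 2.88 times the highest of the others. The next highest dried line was null for 116 genes (43.6%, where null is the highest of the 3 for 55.6% of all genes kept), A004A for 78 (29.3%, against 16.7%) and A005B for 60 (22.6%, against 27.7%). In the remaining 12 genes the other dried lines were all listed at 0.

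Some of the widest gaps belonged to genes that every line expressed. Glyma.04G204900 was at 48.2 RPKM in dried null, 71.7 RPKM in A004A, 65.5 RPKM in A005B and 860.0 RPKM in B010C. Glyma.15G144900 was at 32.6, 41.9 and 13.1 RPKM in dried null, A004A and A005B and at 418 RPKM in dried B010C. In both genes B010C lay far above the other lines. Those lay between 48.2 and 71.7 RPKM in Glyma.04G204900 and were more spread, from 13.1 to 41.9 RPKM, in Glyma.15G144900.

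Other wide gaps were set against values near the lower end of the scale. Glyma.05G230500 was listed at 0 in dried null and A004A, stood at 3.97 RPKM in A005B and reached 93.0 RPKM in B010C. Glyma.08G094300 was listed at 0 in the 3 other dried lines and at 21.7 RPKM in B010C, and of the watered columns only A004A had it, at 6.46 RPKM. In all, 66 of the 266 genes (24.8%) were listed at 0 in at least 1 other dried line, against 1.69% of genes kept, and 173 (65.0%) had at least 1 RPKM in each of them, against 79.1%. Low values in the other dried lines were favoured by the choice of the genes. No fold is given against a listed 0, which need not mean that a transcript was missing.

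The threshold runs through a continuous range of values. Glyma.06G134800, the nearest gene inside it, stood at 12.4 RPKM in dried B010C and 5.71 RPKM in the next line (gap 1.0006). Glyma.11G198500, the nearest outside, stood at 1203 and 602 RPKM (gap 0.998). The gap depends on scaling, and 245 of the 266 genes met the rule after median-of-ratios scaling (304 met it in all) and 190 after quantile normalization (197 in all).

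**Figure D1:**
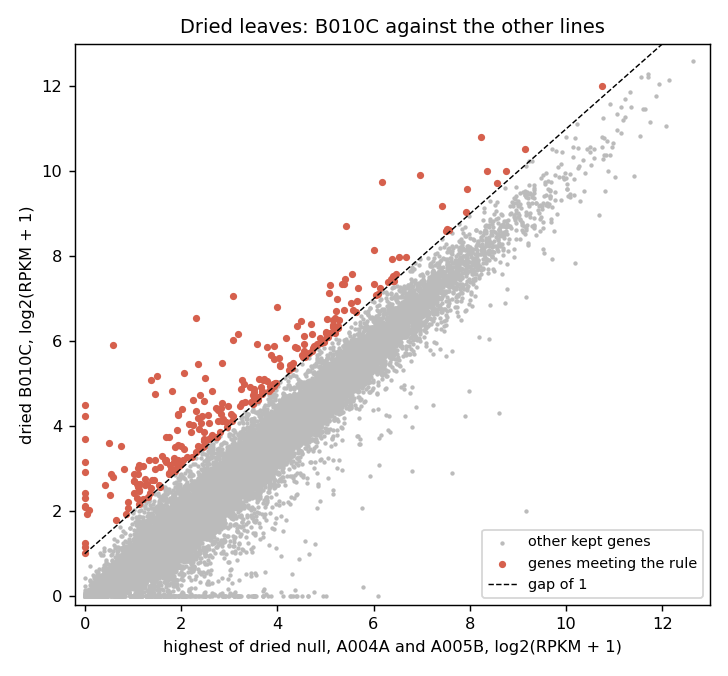
Level in dried B010C (vertical) against the highest of dried null, A004A and A005B (horizontal), both as log2(RPKM + 1), for 34400 genes. The 266 chosen genes lie on or above the dashed line of gap 1, from genes listed at 0 elsewhere on the left edge to Glyma.20G247800 at 4117 RPKM in the upper right.

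Drying divided the chosen genes into 4 groups, by whether a line rose at least 2-fold from its own watered column. These changes contain the dried columns that chose the genes, so they too are a description, and rising in B010C was favoured by the choice. Of the 266 genes, 78 rose in all 4 lines (29.3%, against 11.1% of genes kept), 69 rose in B010C and in 1 or 2 other lines (25.9%, against 4.99%), 69 rose in B010C alone (25.9%, against 1.51%) and 50 did not rise in B010C (18.8%, against 82.4%). The largest group thus rose in every line and ended highest in B010C.

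The genes that rose in all 4 lines started low. Their median in watered B010C was 0.257 RPKM and in dried B010C 65.1 RPKM. None of them was listed at 0 in a dried line, which a 2-fold rise already excludes. The median log2 change was 4.86 in B010C and between 3.22 and 3.38 in the other lines. Glyma.19G181600 rose from 12.8 to 499 RPKM in the null line, in A004A from 4.05 to 500.0 RPKM, in A005B from 17.8 to 569.7 RPKM and in B010C from 26.7 to 1467 RPKM. The 3 other dried lines lay close together, and B010C lay above them, as the rule requires. B010C was also the highest line when watered. The log2 change of this gene was larger in A004A (6.63) than in B010C (5.73), and smaller in null (5.17) and A005B (4.93). After quantile normalization its dried gap was 0.945, under the limit of 1.

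Glyma.13G186200 was below 1 RPKM in every watered line. After drying it stood at 45.8 RPKM in null, 27.1 RPKM in A004A, 23.7 RPKM in A005B and 192 RPKM in B010C. Its watered values, from 0.525 to 0.756 RPKM, did not set B010C apart. In this gene the lines lay together when watered and apart when dried.

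Among the 69 genes that rose at least 2-fold in B010C alone, the median change in every other line was downward. The median log2 change was 1.96 in B010C, -0.17 in null, -0.08 in A004A and -0.79 in A005B. That of all genes kept was downward too, at -0.06 in null, -0.30 in A004A and -0.16 in A005B. A 2-fold rise in another line would have put a gene in a different group, which favours low medians there. In 27 genes the 3 other lines all changed less than 2-fold. In 42 at least 1 of them fell at least 2-fold, which was A005B in 29 genes, A004A in 17 and null in 11. Of all genes kept, 23.7% fell this far in A005B, 28.3% in A004A and 17.9% in null. Glyma.20G247800, the most abundant of the 266 genes in dried B010C, stood at 1549 and 1718 RPKM in null (watered and dried), at 935 and 1069.6 RPKM in A004A and at 940.5 and 1436 RPKM in A005B. In B010C it stood at 1426 and 4117 RPKM, inside the range of the other lines when watered and above it when dried.

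Glyma.10G055300 stood at 163 RPKM watered and 325 RPKM dried in null, at 135 and 179 RPKM in A004A, at 149.5 and 215 RPKM in A005B and at 266 and 1039 RPKM in B010C. Here B010C was already the highest line when watered. The other lines rose too, and the log2 change of 0.994 in null lay just under the limit of 1. Glyma.04G204900 fell in null (from 121 to 48.2 RPKM) and in A005B (from 404 to 65.5 RPKM), stayed near its level in A004A (60.8 and 71.7 RPKM) and rose in B010C from 221 to 860.0 RPKM.

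The 69 genes that rose in B010C and in only some other lines rose also in A004A in 33 cases, in A005B in 27 and in null in 26. Of all genes kept, 16.7% rose at least 2-fold in A004A, 17.7% in A005B and 15.8% in null. Of these 69, 30 were listed at 0 in at least 1 other dried line, where 1.69% of all genes kept were. The choice of the genes and the lack of a rise in some line both favour such zeros. Their median in watered B010C was 0.544 RPKM. Glyma.09G164000, one of the more abundant, went from 77.8 to 172 RPKM in A004A and from 138 to 579 RPKM in B010C. In null it went from 104 to 130.4 RPKM and in A005B from 157 to 170.2 RPKM.

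Of the 50 genes that did not rise in B010C, at least 1 other line fell at least 2-fold in 35 and all 3 in 11. Such falls were common over all genes kept (17.9% in null, 28.3% in A004A and 23.7% in A005B). The choice of the genes also favours them, and the share with a fall in any of these lines was not counted over all genes. In B010C itself 41 changed less than 2-fold and 9 fell at least 2-fold, of which 7 fell in all 4 lines. Glyma.02G083600 fell from 3834 to 123 RPKM in null, in A004A from 1941 to 58.2 RPKM and in A005B from 8396 to 48.3 RPKM.

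In B010C, Glyma.02G083600 fell from 3686 to 959 RPKM only. The adjacent identifier, Glyma.02G083700, followed the same course. Its watered values ran from 557 to 1319 RPKM, and its dried values were 18.3, 8.83 and 5.11 RPKM in null, A004A and A005B and 42.4 RPKM in B010C. Both genes fell in every line and least in B010C.

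**Figure D2:**
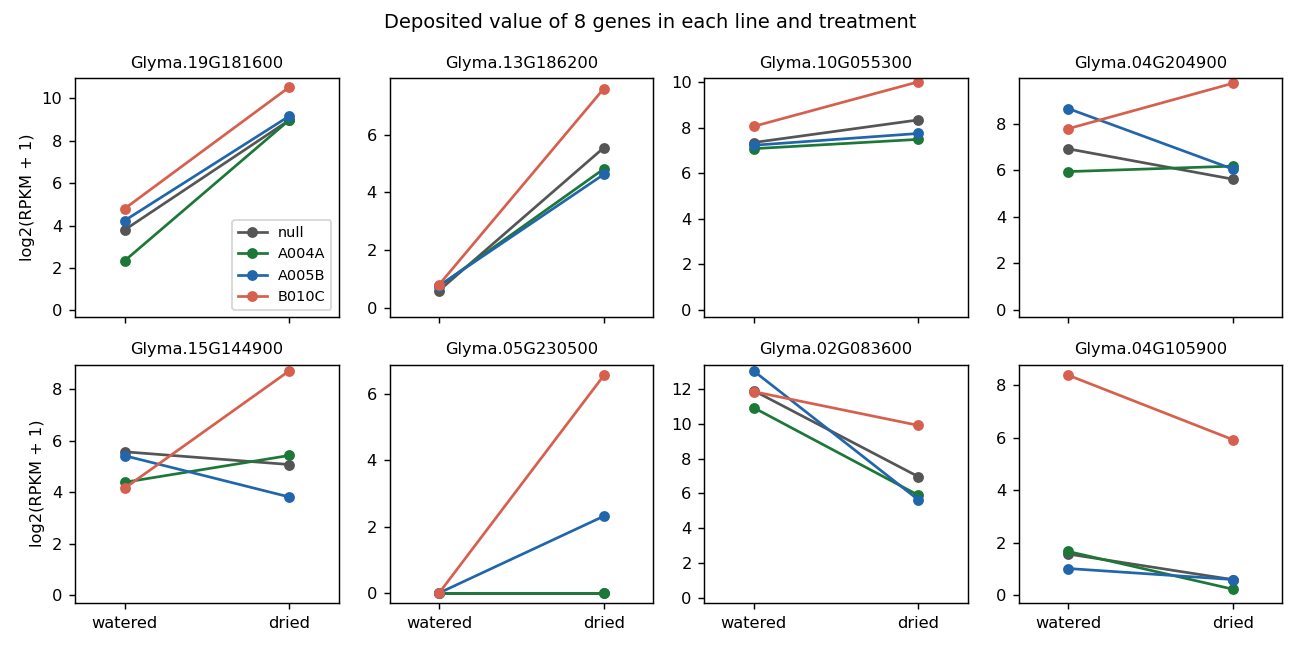
The deposited value of 8 chosen genes in each line, watered and dried, as log2(RPKM + 1), with 1 point per column and no error because there is 1 value per group. Counting only a rise of at least 2-fold, Glyma.19G181600 and Glyma.13G186200 rose in all lines, and Glyma.10G055300 and Glyma.04G204900 in B010C alone. Glyma.15G144900 and Glyma.05G230500 rose in B010C and 1 other line, and Glyma.02G083600 and Glyma.04G105900 did not rise in B010C.

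Line by line, the genes at least 2-fold higher after drying were 216 of the 266 in B010C (81.2%, against 17.6% of genes kept), 108 in null (40.6%, against 15.8%), 114 in A004A (42.9%, against 16.7%) and 107 in A005B (40.2%, against 17.7%). At least 2-fold lower were 9 in B010C (3.38%, against 23.4%), 32 in null (12.03%, against 17.9%), 41 in A004A (15.4%, against 28.3%) and 70 in A005B (26.3%, against 23.7%). The median log2 change of the 266 was 2.72 in B010C, 0.39 in null, 0.54 in A004A and 0.20 in A005B, where the medians of all genes kept were -0.17, -0.06, -0.30 and -0.16. After quantile normalization the medians in null and A005B were 0.

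**Figure D3:**
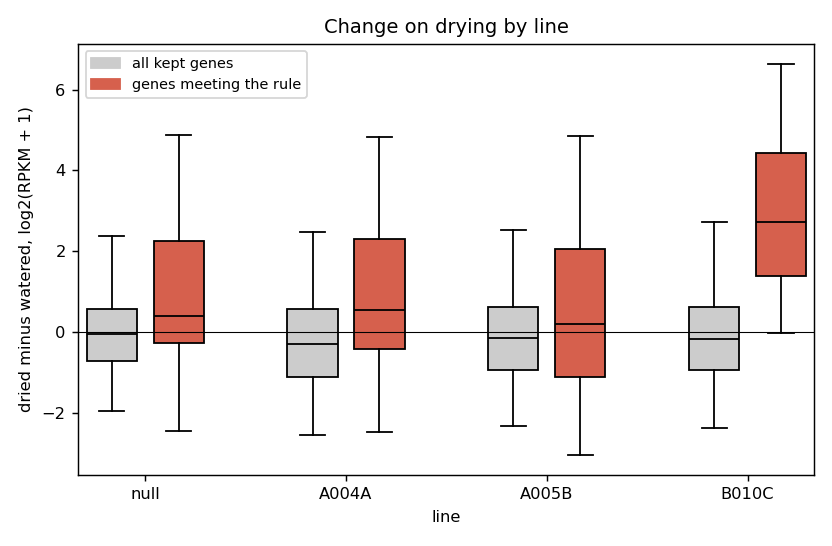
Change on drying, dried minus watered log2(RPKM + 1), in each line for all 34400 genes (grey) and the 266 chosen genes (red). Boxes span the quartiles with the median as a line, and whiskers run from percentile 5 to percentile 95. The chosen genes have a median of 2.72 in B010C and of 0.20 to 0.54 in the other lines.

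The watered columns had no part in the gap, though they count toward the limit on low values. They hold the level of each line without drying, and for most of the 266 B010C lay near the other lines. It lay within 1 log2 unit of their mean in 80.1% of the 266, fewer than the 98.8% of genes kept. The watered log2 value of B010C minus the mean of the 3 other lines had a median of -0.03, against -0.01 over all genes kept. B010C was the highest watered line for 44 genes (16.5%, against 16.6%) and A005B for 84 (31.6%, against 30.6%). A gene listed at 0 in watered B010C, as 58 of the 266 were, cannot be highest there. B010C was at least 2-fold above every other watered line in 10 genes and at least 2-fold below every other in 9 (3.38%, against 0.169%). Null, A004A and A005B were each at least 2-fold below every other watered line in 7 of the 266. For these 3 lines the share over all genes kept was not counted, so the 7 cannot be set against the 9.

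The 10 genes were 3.76% of the 266, against 0.102% of genes kept (35 genes), and they made up 28.6% of those 35. The rule on low values bears on this count. In 26 of the 266 genes no other dried line reached 1 RPKM, so such a gene was kept only if a watered column did. Among the 240 other genes, 7 were at least 2-fold highest in watered B010C (2.92%, against 0.07% of the 28564 genes with 1 RPKM or more in dried B010C and another dried line). Without the watered B010C column itself, 262 of the 266 would still have been kept, of which 8 were at least 2-fold highest there (3.05%, against 0.0819%). The same rule was also applied to each other dried line. Of the genes so chosen, 2.82% for dried null (4 genes), 2.78% for dried A004A (1) and 6% for dried A005B (3) were at least 2-fold highest in watered B010C. The excess was thus not seen in the B010C genes alone, and these shares rest on few genes.

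limma was fitted to the 4 watered columns, with B010C against the other 3 lines, the spread taken from between those 3 lines, two-sided tests, and Benjamini-Hochberg adjustment over 34400 genes. A gene listed at 0 in the 3 other watered lines shows no spread between them, which favours a call of higher B010C. Most of the genes called were of this kind. With a single B010C column limma sets 1 value against 3, and B010C itself has no measured spread. It called 12 genes higher in B010C (0.0349% of genes) and 0 lower, with 446 genes lower at an unadjusted p under 0.05. Of the 12 calls, 6 were among the 266 genes (2.26%). Among the genes kept without the watered B010C column the calls were 10 (0.0292%) and 5 (1.91% of 262). At an unadjusted p under 0.05, 17 of the 266 were higher (6.39%, against 0.698%) and 14 lower (5.26%, against 1.3%). In watered leaves 80.1% of the chosen genes lay within 1 log2 unit of the mean of the other lines, against 98.8% of genes kept.

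Glyma.04G105900 was at 332 RPKM in watered B010C and at 1.95, 2.16 and 1.02 RPKM in watered null, A004A and A005B. The log2 difference was 6.97 ± 0.31 SE (limma, adjusted p = 0.0326). After drying it stood at 59.6 RPKM in B010C and at 0.502, 0.166 and 0.506 RPKM in null, A004A and A005B, so that it fell in B010C and had the widest dried gap of the 266 genes all the same. Its watered and dried values in B010C lay above every value of the other lines.

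Glyma.04G105500 was at 9.24 RPKM in watered B010C and between 0.0585 and 0.242 RPKM in the other watered lines (log2 difference 3.15 ± 0.15 SE, limma, adjusted p = 0.0348). It reached 3.12 RPKM in dried B010C and at most 0.0689 RPKM in the other dried lines. It had 1 RPKM or more in no column but those of B010C, and so was kept only through the value that the test compares, which favours a call.

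The 4 other genes called by limma were listed at 0 in the 3 other watered lines, so their standard error comes only from the spread that limma pools over genes. Glyma.10G013200 was at 19.8 RPKM in watered B010C (limma, adjusted p = 0.0138). After drying it stood at 4.12 RPKM in null, 22.5 RPKM in A004A, 26.3 RPKM in A005B and 58.7 RPKM in B010C. Glyma.11G195400 was at 6.49 RPKM in watered B010C (limma, adjusted p = 0.0149) and after drying at 5.33, 14.4 and 3.51 RPKM in null, A004A and A005B and 47.0 RPKM in B010C. Both rose on drying in all lines, from a watered value above 0 in B010C only. The other 2, Glyma.20G160000 and Glyma.09G020400, stood at 5.55 to 7.46 RPKM in both B010C columns and at no more than 1.19 RPKM elsewhere. In dried B010C the same value, 5.55182 RPKM, was listed for Glyma.20G160000 and Glyma.07G091300, and 7.46225 RPKM for Glyma.09G020400 and Glyma.11G017300. How many reads lie behind such recurring values is unknown. The 6 limma calls were lost on leaving out null, A004A or A005B, with adjusted p from 0.137 to 0.580, and with a pseudocount of 0.1 those of Glyma.04G105900 (adjusted p = 0.104) and Glyma.04G105500 (0.465) are lost.

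**Figure D4:**
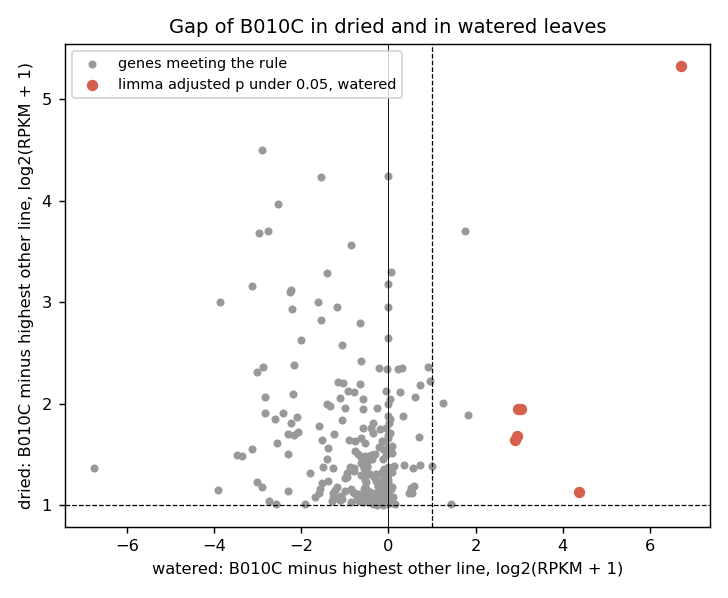
For the 266 chosen genes, B010C minus the highest other line in watered (horizontal) and in dried leaves (vertical), in log2(RPKM + 1). Red points are the 6 genes that limma called in watered leaves, with Glyma.04G105900 at the upper right, and the dashed lines mark a gap of 1, which 10 genes pass in watered leaves.

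Watered A005B also held high values of these genes. It was at least 2-fold above every other watered line in 25 of the 266 (9.40%, against 0.323% of genes kept), and in 24 of the 240 genes with 1 RPKM or more in another dried line (10%, against 0.28%). The same count was 10 for watered A004A (3.76%, against 0.392%) and 5 for watered null (1.88%, against 0.108%). The rule applied to the other dried lines gave sets that overlap with watered A005B too. At least 2-fold highest in watered A005B were 22% of the dried A005B set (11 genes), 13.9% of the dried A004A set (5) and 2.11% of the dried null set (3). The overlap was thus not particular to the B010C genes. In the 25 genes the median was 27.4 RPKM in watered A005B and 5.14 RPKM in dried A005B, and 20 of them fell at least 2-fold there on drying. In B010C the median of the same genes went from 5.13 RPKM watered to 42.4 RPKM dried.

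Glyma.16G082100 was an abundant one of the 25. In watered leaves it was at 416 RPKM in null, 351 RPKM in A004A, 958 RPKM in A005B and 459.6 RPKM in B010C. After drying it was at 301 RPKM in null, 284 RPKM in A004A, 292 RPKM in A005B and 1795 RPKM in B010C. A005B was the highest line when watered and B010C when dried. Glyma.02G083600 and Glyma.02G083700, described above, belong to the same 25 genes.

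The identifiers of the 266 genes covered all 20 chromosomes. In soybean identifiers the digits before the G give the chromosome and those after it follow the order of genes along it. By these digits, the share of kept genes that were chosen ran from 0.529% on chromosome 20 (8 genes) to 1.14% on chromosome 10 (21 genes), around 0.773% over all. No chromosome held a large part of them.

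Within this spread, 33 of the genes stood within 5 places of another in the table, in 15 pairs and 1 group of 3. They were 12.4% of the 266, where 4.62% of all genes kept stood as near to one of the 266. The group of 3 was Glyma.15G159500, at 10.7 RPKM in dried B010C and 0.490 to 0.674 RPKM in the other dried lines, with Glyma.15G159900 (4.42 RPKM, against 0.488 to 1.02 RPKM) and Glyma.15G160000 (6.32 RPKM, against 0.0919 to 1.16 RPKM). They lie in a stretch of 12 consecutive identifiers, chosen for display after its values were seen, of which 10 were highest in dried B010C. Of its 6 kept genes 5 were, where 18% of all genes kept are highest there. These 5 include the group of 3, which the rule itself made highest in dried B010C, so the count is no independent measure. Of the 6 identifiers in the stretch that were removed for low values, Glyma.15G159600 stood at 4.52 RPKM and Glyma.15G160100 at 3.57 RPKM in dried B010C. Both stood at no more than 0.707 RPKM in the other dried lines. In watered leaves the 3 genes stayed at or below 1.298 RPKM in all lines, with B010C lowest in Glyma.15G159900 and Glyma.15G160000.

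Glyma.04G105500 and Glyma.04G105900 form one of the pairs. The 3 identifiers between them were listed at 0 in all columns, except for 0.202 RPKM of Glyma.04G105800 in dried A004A. Of the neighbours on either side, Glyma.04G105400 was at 1.14 RPKM in watered B010C and 0.371 to 1.75 RPKM in the other watered lines. Glyma.04G106300 was at 1.76 RPKM in watered B010C and 1.07 to 1.73 RPKM in the others. In watered leaves the high values of B010C were thus seen in the pair and not in these neighbours.

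**Figure D5:**
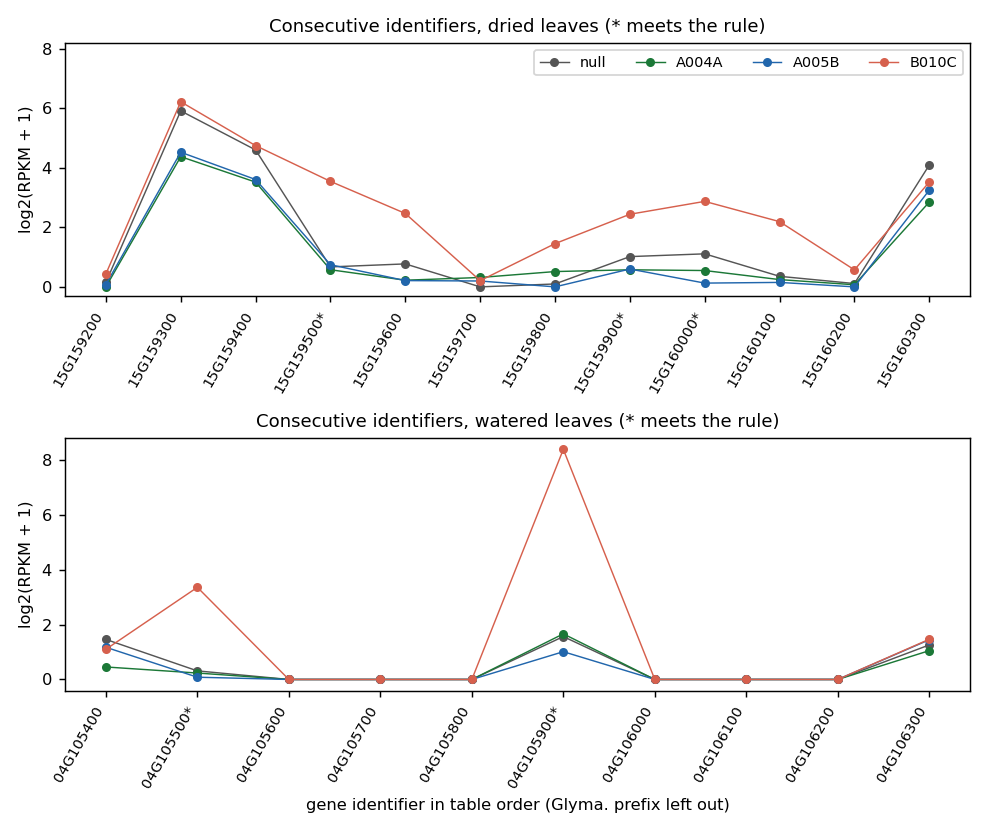
Values of consecutive identifiers, as log2(RPKM + 1), in the 4 lines: around Glyma.15G159500 in dried leaves (top) and around Glyma.04G105900 in watered leaves (bottom). Stars mark chosen genes, and the top panel shows B010C highest at 10 of 12 identifiers, the bottom panel B010C far above the other lines at the starred pair.

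The same rule applied to the other dried lines chose 142 genes for null, 36 for A004A and 50 for A005B, so B010C had the most of the 4. These counts come from 1 column per line and their difference was not tested. The B010C genes had the highest median level in their own dried line (24.6 RPKM, against 11.6 RPKM for null, 10.5 RPKM for A004A and 4.48 RPKM for A005B). Of the B010C genes, 4.51% were listed at 0 in all other dried lines, against 10.6% for null, 36.1% for A004A and 48.0% for A005B. They rose at least 2-fold on drying in their own line in 81.2% of cases, against 23.9% for null, 72.2% for A004A and 54.0% for A005B. Of all genes kept, 17.6% rose so in B010C, 15.8% in null, 16.7% in A004A and 17.7% in A005B. Choosing genes by the dried level of a line favours a rise in that line.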

How the data were processed

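The authors deposited RPKM values, 1 column for each line and treatment. TopHat is named per the submitters' processing notes. The sources used here give neither its version nor the counting program, the genome build or how the 2 samples of a group were combined. Columns were tied to groups by the line and treatment in their names, and 0 columns were left over. Depth per column is unknown. Values were used as log2(RPKM + 1), which understates the change of low genes. The limma fit of B010C against the other 3 watered lines used empirical Bayes moderation with a trend (2 residual degrees of freedom). The fit was also run on simulated data with changes placed only in genes well above 0, which do not cover genes listed at 0 in the other 3 lines. Its p-values measure the spread between lines, not between plants. limma 3.58.1, R 4.3.3, Python 3.11.15 and pandas 2.3.3 were used. Other comparisons are between single columns and carry no test. The genes and all lists were chosen with earlier results of these data known. Genes were named from the 12 with the widest dried gap, the 10 highest in dried B010C, the 10 at least 2-fold highest in watered B010C, the 5 nearest to the threshold on each side, and neighbouring identifiers; within response groups, examples were picked after their values were seen. The 32 functional lists drawn up could not be built, and no sequence was printed, because no reference paired with the identifiers. Alternatives were pseudocounts of 0.1 and 5, no filter or a mean of at least 5 RPKM, median-of-ratios scaling, quantile normalization, gaps of 0.5 and 2, and leaving out each other line.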

Additional observations from a re-analysis of the deposited data

Results flagged for a closer look

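Glyma.04G100800 rose on drying in B010C by 3.16 on the log2 scale, from a listed 0 to 7.96 RPKM, while it fell by 2.03 in null, by 2.89 in A004A and by 3.14 in A005B, in each to a listed 0. Glyma.19G066000 rose by 2.59 in B010C, from 1.03 to 11.2 RPKM, and fell by 3.29 in null, by 1.61 in A004A and by 1.11 in A005B. What drew attention was that the direction in B010C was opposite to that in each other line by at least 2-fold. The choice of genes by their dried level in B010C favours this pattern, each line has 1 column per treatment, and the difference was not tested.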

How the results depend on the processing

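No paired analysis was possible because the table gives 1 column for the 2 samples of a group, so no replicate could be blocked or left out. The number of genes meeting the rule, 266 as reported, was 144 with a pseudocount of 5, 154 with a mean of at least 5 RPKM, 712 without null, 921 with a gap of 0.5 and 50 with a gap of 2. Its other values lay between 197 and 369. The genes at least 2-fold highest in watered B010C, 10 as reported, were 18 with a pseudocount of 0.1, 5 with a pseudocount of 5 and 5 with a mean of at least 5 RPKM, and 19 without null, 16 without A004A and 22 without A005B. limma calls in watered leaves, 12 as reported, of which 6 among the chosen genes, were 382 with no filter, and 0 in all and 0 among the chosen genes without null, without A004A or without A005B; fewer lines leave 1 residual degree of freedom. Without a filter, the call of Glyma.04G105900 had an adjusted p of 0.0592. The median watered difference lay between -0.06 and 0 under every setting run.

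The median log2 change on drying of the genes chosen under each setting moved as follows. In B010C it was 3.12 with a pseudocount of 0.1, 2.24 with a pseudocount of 5, 3.22 for genes averaging 5 RPKM or more, 2.88 on median-of-ratios scaled values, 2.45 on quantile-normalized values and 2.06 without null. In null, A004A and A005B it was 0.20, 0.25 and 0 with no filter, and 0.90, 1.17 and 0.56 for genes averaging 5 RPKM or more. On median-of-ratios scaled values it was 0.63, 0.79 and 0.48, and on quantile-normalized values 0, 0.32 and 0. With at least 1 RPKM in another dried line, a setting added after seeing the data, it was 0.74, 0.86 and 0.59. It was 0.18 in A004A without null, and 0.74 in null and 0.57 in A005B without A004A. None of these medians took the opposite sign, and 3 values were 0.

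The genes at least 2-fold higher after drying in null, A004A, A005B and B010C were 52, 55, 43 and 120 with a pseudocount of 5. With a mean of at least 5 RPKM they were 71 in A005B and 125 in B010C. After quantile normalization they were 62, 68 and 64 in null, A004A and A005B. They were 252 in A004A, 279 in A005B and 501 in B010C without null, and 164 in null and 161 in A005B without A004A. The cause of these shifts was not tested; the settings also change how many genes meet the rule. Values near 0 RPKM, and low values set against a listed 0, are limited by the unknown depth.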
